A study of Mus musculus with 12 samples.

Results

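The histone genes of the mouse testis were examined in RNA-seq libraries from F1 mice of 4 groups. The members were all rows of the expression table whose symbol started with Hist1h to Hist4h, H1f, H2af, H2bf or H3f. There were 79 such rows among 20788. They comprised 60 replication-type genes, 11 replacement variants, 7 testis variants and 1 oocyte variant, H1foo. The 4 groups were 3NC, 5NC, lncRNA5251 knockdown and lncRNA5251 overexpression, with 3 libraries each, and the latter pair is called the knockdown and the overexpression group. F1 mice were the untreated sons of ICR males, spelled IRC in the labels, that had received a lentivirus in the testes. The fathers of the knockdown group were given shRNAs against the long non-coding RNA lncRNA5251 on the LV3 backbone, and those of the 3NC group the LV3 control. The fathers of the overexpression group were given the full lncRNA5251 on the LV5 backbone, and those of the 5NC group the LV5 vector. All sons were sampled as adults of the same age per the study, although the design text of the series describes transfection of the F1 testes. No value of lncRNA5251 was available, since it has no row of its own, so the state of the F1 groups could not be checked on their target. The labels do not tie libraries to separate animals, so the p-values given here measure the spread between libraries, which may be technical.

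Histones are the proteins around which DNA is wound. H2A, H2B, H3 and H4 form the core of the nucleosome, and H1 binds the DNA that enters and leaves it. Replication-type genes are transcribed when DNA is copied, and their messengers end in a stem-loop instead of a poly(A) tail. Replacement variants such as H3.3 and H2A.Z are made outside S phase from polyadenylated messengers. During spermatogenesis, testis variants of H1, H2A and H2B are built into the chromatin of spermatocytes and spermatids, and most histones are later exchanged for transition proteins and then protamines. The methods describe a selection of messengers with oligo(dT) beads, whereas the labels name total RNA. Such a selection enriches RNA that carries a poly(A) tail, and how much histone RNA without one was carried along was not tested.

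The estimated reads per library ranged from 12719699 to 15771655. The 79 rows together took between 0.203% and 0.222% of them. Of the 79 rows, 52 lay on chromosome 13 and 10 on chromosome 3. The chromosome 13 rows held 48 replication-type genes together with the testis variants Hist1h1t, Hist1h2aa and Hist1h2ba. Libraries differed in ways that the groups did not explain. A list of 6 macrophage and white blood cell genes summed to 642 CPM (estimated reads scaled to a common library size with TMM factors) in 3NC replicate 2 and 726 in knockdown replicate 1, against 54.2 to 115 in the other 10. Genes with a transcript GC content of 60% or more, histone genes left out, also moved together between libraries. Their median log2 deviation from the mean over libraries was 0.07 to 0.20 in 3NC replicate 1, 5NC replicate 1, the 3 knockdown libraries and overexpression replicates 1 and 2. It was -0.24 to -0.14 in the other 5 libraries. This deviation is called the GC value below, because many histone genes are rich in GC.

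The stem-loop that closes replication-type messengers was searched in the annotated transcripts, because messengers that end in it lack the tail that oligo(dT) beads bind. The search used the frame GGNNNNTNTNNNNNCC on the transcript strand, with the 4 inner pairs of the stem also complementary. The sequences below are those of genes with values in the results and, for comparison, of Hist1h4h and Hist1h4b, which show 2 further forms of the H4 family, 5′ to 3′, with the 4 bases of the loop in capitals.
Hist2h2aa1: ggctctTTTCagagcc
Hist1h4h: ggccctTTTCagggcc
Hist1h4a: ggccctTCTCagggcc
Hist1h4b: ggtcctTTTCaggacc
Hist1h1t: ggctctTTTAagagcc
H2afx: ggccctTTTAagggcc
The form of Hist2h2aa1 (chr3:96246032-96246047, plus strand, GRCm38, GENCODE transcripts) was found in 25 replication-type genes of the H1, H2A, H2B and H3 families. It also stood in the X-linked testis variant H2bfm. The form of Hist1h4h (chr13:23531458-23531473, plus strand) was found in 7 H4 genes and in no gene of another family. The form of Hist1h4a (chr13:23760800-23760815, minus strand) was found in no other member, and Hist1h4b (chr13:23757366-23757381, plus strand) shared its form with Hist1h4j. The form of Hist1h1t (chr13:23696525-23696540, plus strand), the gene of H1t, was shared by 5 replication-type genes. H2afx (chr9:44335240-44335255, plus strand), the gene of H2A.X, was the 1 replacement variant of 11 with a stem-loop, and it lay 822 bases before the annotated end of the transcript. H2afx messengers are known in a short form that ends at the stem-loop and in a longer polyadenylated form.

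A stem-loop was found somewhere in the transcripts of 43 of the 60 replication-type genes, and in 43 of the 52 with annotated untranslated bases. Among all 21901 protein-coding genes the share was 0.726%, histone genes included. In the last 150 bases it was found in 23 of 60 (38.3%, exact 95% interval 26.1 to 51.8%), against 0.128% of all protein-coding genes. Of the testis variants, 2 of 7 had one, at 185 bases before the end in Hist1h1t and nearest at 194 bases in H2bfm. The other 5 had none in their annotated transcripts, but 13 members, among them Hist1h2aa, Hist1h2ba and H2afb3, were annotated without untranslated bases. The row H3f3c, also among the 13 and placed with the replacement variants by its symbol, is annotated as a processed pseudogene. The sequence beyond the annotated ends was not analysed here. The hexamer AATAAA, the usual signal for adding a poly(A) tail, stood in the last 50 bases of 9 of 11 replacement variants, 13 of 60 replication-type genes and 2 of 7 testis variants. The share of all protein-coding genes was 65.7%, counted over their coding transcripts alone. For the members any annotated transcript counted, and H2afy and Hist1h2be have the hexamer there only in a non-coding transcript.

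A few genes held most of the RNA of the 79 rows. Levels are compared between genes as FPKM, the authors' reads per kilobase scaled to the depth of the library, with mean ± SD over the 12 libraries. The highest of these rows was H3f3a, which encodes H3.3, at 545 ± 47.8 FPKM. H1fnt, the H1 variant of elongating spermatids, followed at 365 ± 39.5 FPKM. H2afz, which encodes H2A.Z, stood at 284 ± 32.8 FPKM and H3f3b, the second H3.3 gene, at 276 ± 24.7 FPKM, and these neighbours in the order did not differ beyond their spread. The median over replacement variants was 27.0 FPKM, against 3.30 FPKM over all rows of the table. Next among the replacement variants came H2afy (macroH2A1) at 39.9 ± 3.02, H1fx at 39.2 ± 9.28 and H2afx at 27.0 ± 3.91 FPKM. H2afv, the second H2A.Z gene, was at 12.3 ± 1.12 FPKM, H1f0 at 11.05 ± 1.91, H2afy2 (macroH2A2) at 8.20 ± 0.785 and H2afj at 4.83 ± 1.04 FPKM. H3f3c was at 0.242 FPKM, and 70.2% of its 50-base words also occur in other rows of the table.

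**Figure D1:**
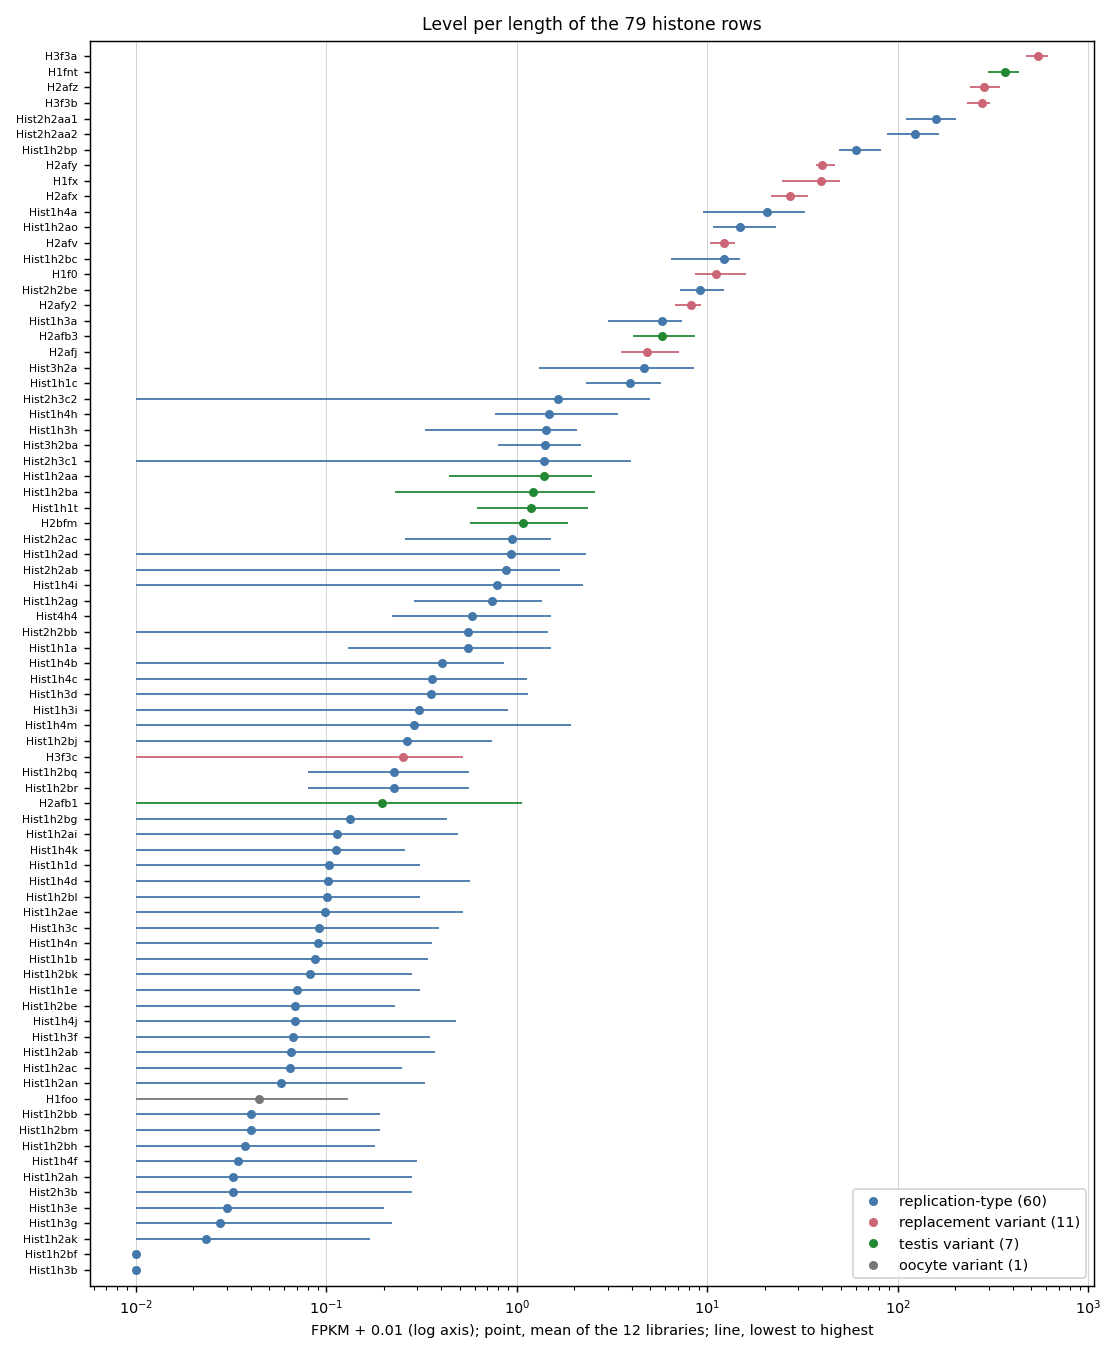
Mean level of the 79 histone rows in FPKM plus 0.01 on a log axis, with a line from the lowest to the highest of the 12 libraries and colours for the 4 classes. Replacement variants and H1fnt take the top of the scale up to 545 FPKM, most replication-type rows lie under 1 FPKM, and lines that reach the left edge mark rows with at least 1 library at 0.

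The testis variants spanned a wide range. Below H1fnt, H2afb3, an X-linked short H2A variant of spermatids, was at 5.74 ± 1.47 FPKM. Hist1h2aa, the gene of TH2A, was at 1.37 ± 0.677 and its neighbour Hist1h2ba, the gene of TH2B, at 1.21 ± 0.641 FPKM. Hist1h1t was at 1.18 ± 0.597, H2bfm at 1.07 ± 0.392 and H2afb1 at 0.185 FPKM. The variants from Hist1h2aa to H2bfm did not differ from each other beyond their spread. Reads behind them were few. Hist1h2aa had 2 to 12 reads per library, Hist1h2ba 1 to 12 and Hist1h1t 5 to 22, whereas H1fnt had 4997 to 7828. TH2A, TH2B and H1t are the variants that spermatocytes build into chromatin, and the level of each was far below that of the spermatid variant H1fnt. Hist1h2aa and Hist1h2ba are annotated without untranslated bases, and Hist1h1t holds a stem-loop. The part of these annotations and of the oligo(dT) selection in the low levels was not tested. H1foo, the H1 of the oocyte, had 0 reads in 7 libraries and at most 3 in any.

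The replication-type genes had a median of 0.217 FPKM. Of the 60, 45 were under 1 FPKM and 37 had a mean of under 3 reads per library. Hist1h2bf and Hist1h3b had 0 reads among 178818805 in the 12 libraries, which allows up to 0.0168 CPM without scaling. Intervals and limits of this kind cover counting error only. A few genes stood apart from the rest. Hist2h2aa1 and Hist2h2aa2, a pair of H2A genes on chromosome 3, were at 159 ± 36.1 and 124 ± 28.3 FPKM. Together they took 53.8% to 65.7% of the replication-type CPM in each library. All 50-base words of Hist2h2aa2 occur in Hist2h2aa1, so their separate levels depend on how shared reads were divided. Hist1h2bp (H2B) followed at 60.3 ± 10.6 FPKM, Hist1h4a (H4) at 20.6 ± 7.02, Hist1h2ao (H2A) at 14.7 ± 3.06 and Hist1h2bc (H2B) at 12.2 ± 2.58 FPKM. Hist2h2be (H2B) was at 9.12 ± 1.66 FPKM and Hist1h3a (H3) at 5.79 ± 1.24 FPKM. The highest H1 gene of this class was Hist1h1c at 3.93 ± 0.984 FPKM.

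The families differed in their makeup, counted over the 79 rows alone. Histone genes that the rule does not match are left out of these shares, among them Hils1 at 572 FPKM and H2al2a at 338 FPKM. Shares of the H1 and H2A families with such genes included were not computed. Replacement variants made up 98.7% of the summed FPKM of the H3 family. In the H1 family the testis variants held 87.0%, nearly all of it H1fnt, and replication-type genes 1.12%. In the H2A family the replacement variants held 54.6% and replication-type genes 44.4%. In the H2B family, in which the rule finds no replacement variant, replication-type genes held 97.4%. All 12 H4 rows are of the replication type, and they summed to 24.7 FPKM, against 832 FPKM for H3 and 690 for H2A.

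Level and annotated transcript end were set side by side for the 60 replication-type genes. The 13 genes with AATAAA near the end had a median of 1.38 FPKM, and the 47 without it 0.102 FPKM. Both features were pooled over the transcripts of a gene, and Hist1h2bp and Hist1h2be have the stem-loop and AATAAA in different transcripts. Hist1h2bp, Hist1h4a and Hist2h2be were among the genes with AATAAA. Hist2h2aa1 and Hist2h2aa2 were among the genes without it, and their annotated transcripts end 35 bases after the stem-loop. Genes with a stem-loop within the last 150 bases had a median of 0.277 FPKM (n = 23) and a range of 0 to 159 FPKM. Genes with a stem-loop further inside had a median of 0.108 FPKM (n = 20), and no gene of this kind was above 4.63 FPKM. These medians are descriptions over genes that share much of their sequence, and no test was made of them.

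**Figure D2:**
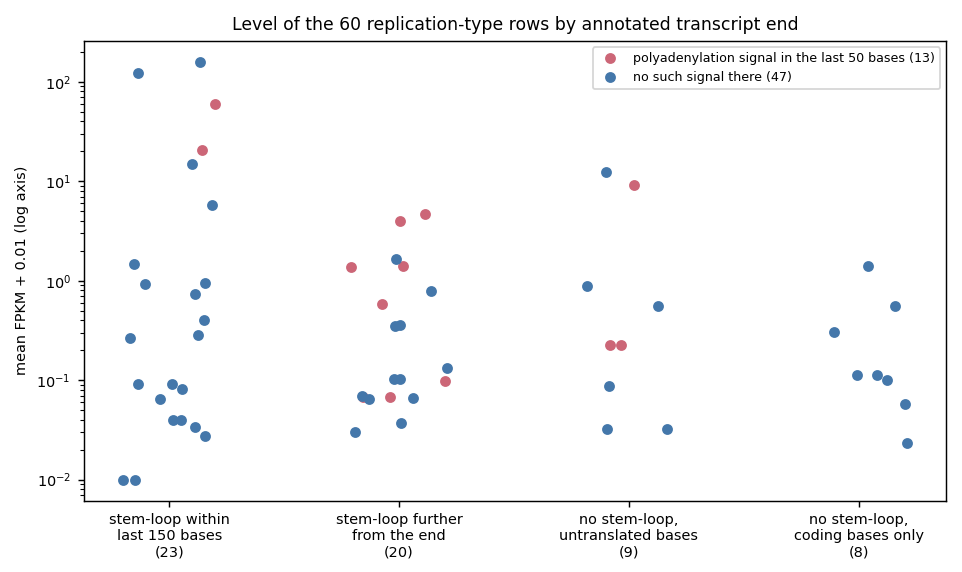
Mean FPKM plus 0.01 (log axis) of the 60 replication-type rows, with colour for a polyadenylation signal in the last 50 bases. Rows are placed by whether any annotated transcript holds a stem-loop in its last 150 bases (23) or only further from the end (20). Rows with none are split into 9 with and 8 without untranslated bases. Hist1h2bp and Hist1h2be have the stem-loop and the signal in different transcripts. Genes with the signal had a median of 1.38 FPKM and those without it 0.102 FPKM, while the highest pair, at 159 and 124 FPKM, had a stem-loop near the end and no such signal.

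Many replication-type rows share part of their sequence with other rows. A row shared a median of 48.2% of its 50-base words with other rows over the 60 replication-type genes, and 0% over the 11 replacement variants. Fractions of reads were found in 44 of the 79 rows (55.7%), against 17.3% of all rows. Their source was not tested, and H2afy2, which shares no 50-base word with another row, was among them. Hist2h3c1 and Hist2h3c2, which encode H3 on chromosome 3, share 63.5% of the words of the latter. In each of the 12 libraries exactly 1 of the 2 rows was at 0. Hist2h3c1 held all reads in 3NC replicates 1 and 2 (32 and 15 reads), 5NC replicates 1 and 2 (31 and 13) and knockdown replicates 1 and 3 (20 and 22). Hist2h3c2 held all reads in 3NC replicate 3 (11), 5NC replicate 3 (19), knockdown replicate 2 (40) and the 3 overexpression libraries (36.5, 34 and 10). The sum of both rows was 0.743 to 2.66 CPM, and the groups overlapped in it. The values of the single rows are therefore given no reading as levels of either gene. Hist2h2aa1 and Hist2h2aa2 share 89.2% of the words of the former and 100% of those of the latter. Their reads were divided with 40.3% to 63.1% on the first row. Single values of this pair depend on that division, and both rows stay in the counts below. Hist1h2bq and Hist1h2br had equal values in 11 of 12 libraries.

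**Figure D3:**
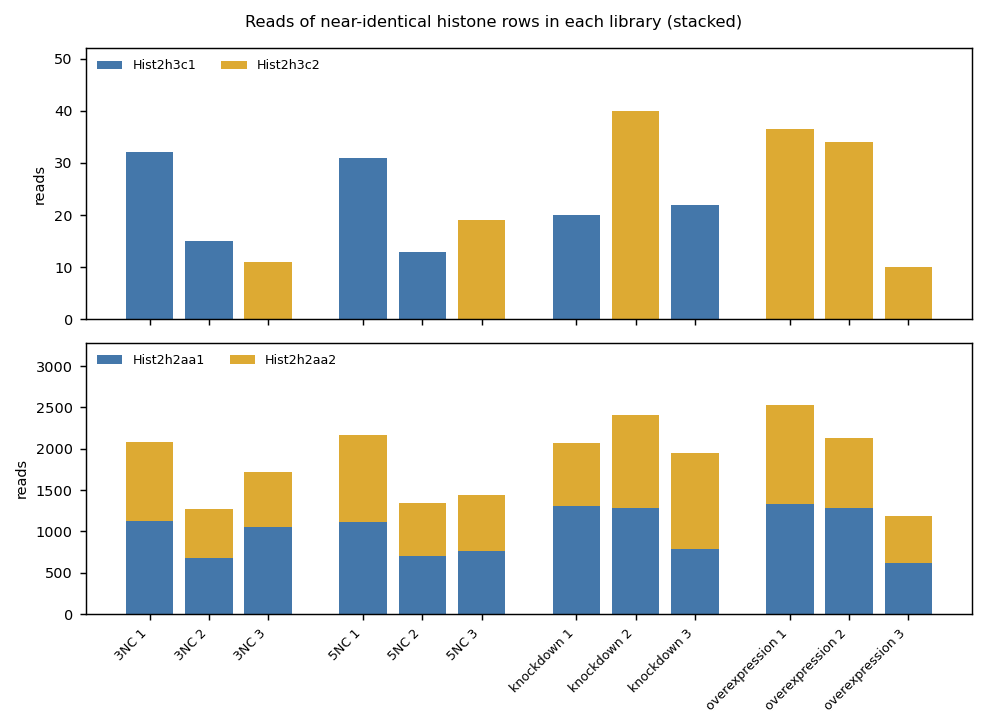
Stacked bars of the estimated reads of Hist2h3c1 and Hist2h3c2 (upper panel) and of Hist2h2aa1 and Hist2h2aa2 (lower panel) in each of the 12 libraries. In the upper panel each bar has 1 colour, since exactly 1 of the 2 rows is at 0 in every library, and in the lower panel the first row holds 40.3% to 63.1%.

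Whether the groups differed was tested on the estimated counts with edgeR over all genes. Of the 79 histone rows, 27 passed the filter on low counts and 52 did not. The 27 were 10 replacement variants, 4 testis variants (H1fnt, Hist1h1t, H2afb3 and H2bfm) and 13 replication-type genes. Of these, 21 were over the filter's cutoff of 0.655 CPM in all 12 libraries. The other 6 were Hist3h2a, H2bfm, Hist2h3c1, Hist2h3c2, Hist1h1t and Hist1h2ad, and a row that is over the cutoff mainly in the groups where it is high enters the test because of them. Counts of genes at an unadjusted p, and of genes whose groups do not overlap, are therefore given over the 23 rows that were over the cutoff in at least 7 of the 12 libraries, a choice made after seeing the data. This leaves out Hist1h1t, Hist1h2ad, Hist2h3c1 and Hist2h3c2. Hist1h1t was over it in 2 knockdown libraries, 2 overexpression libraries, 1 of 5NC and 0 of 3NC.

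In the testes of the knockdown group no histone gene passed the test against 3NC. The count was 0 of 27, where the share of all 16388 genes called was 0%. DESeq2 and limma called 0 histone genes too. An unadjusted p under 0.05 was found for 2 of the 23 rows (5.64% of all genes), 2 higher in the knockdown group and 0 lower (2.56% and 3.08% of all genes). Of the 23, 15 had a log2 fold change above 0, as had 46.7% of all genes. The median was 0.05, against -0.02 over all genes tested. Among the cell type lists, some Leydig cell genes moved with this comparison. The log2 fold change was -1.17 for Cyp17a1, -0.97 for Star and -1.20 for Lhcgr, each at an unadjusted p under 0.05 and none called. It was -0.66 for Cyp11a1, 0.18 for Hsd3b1 and 0.25 for Insl3, and the median over the list of 6 was -0.82. Their summed level was 1030 to 2007 CPM in 3NC and 1051 to 1393 CPM in the knockdown group, and its part in the histone values was not tested. All 6 genes of the proliferation list were below 0 here (median -0.13), and all 6 in overexpression against 5NC (median -0.15). The round spermatid list was above 0 for 6 of 6 here (median 0.08). In these lists 0 genes were called in these comparisons, and their part in the histone values was not tested. In whole testis, fewer cells of a type and less RNA per cell cannot be told apart. The most abundant genes were close to their controls. H3f3a was at 490, 515 and 598 CPM in 3NC and 511, 529 and 477 CPM in the knockdown group. The log2 fold change of H3f3a was -0.08 (95% interval -0.30 to 0.14). For H1fnt it was 0.04 (-0.31 to 0.39) and for H2afz -0.13 (-0.31 to 0.05).

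The genes of lowest p in this comparison were H2afx and Hist1h2ao. H2AX, the protein of H2afx, is the variant that is phosphorylated at DNA breaks and on the sex chromosomes in meiosis. H2afx was at 31.4, 24.8 and 29.0 CPM in 3NC and 37.5, 36.6 and 35.9 CPM in the knockdown group. All knockdown libraries were above all 3NC libraries, with a log2 fold change of 0.37 ± 0.13 (SE; edgeR, adjusted p = 0.764). Hist1h2ao was at 6.16, 5.16 and 4.85 CPM in 3NC and 9.30, 7.04 and 6.44 CPM in the knockdown group, a log2 fold change of 0.49 ± 0.20. Without knockdown replicate 1, a library of high white blood cell genes, the log2 fold change of Hist1h2ao was 0.32. Groups did not overlap for these genes, nor for H2afj (0.44), H2afv (0.16) and Hist1h4a (0.67), so 5 of the 23 lay wholly above 3NC and 0 wholly below. The shares of all genes were 4.92% above and 6.34% below. With the GC value as a covariate the log2 fold change was 0.21 ± 0.09 for H2afx, 0.35 for Hist1h2ao, 0.26 for H2afj, 0.10 for H2afv and 0.26 for Hist1h4a. Hist1h1t had 6, 8 and 7 reads in 3NC and 21, 12 and 9 reads in the knockdown group. These are given as values alone, since Hist1h1t entered the test through the groups where it was high. All 3 knockdown libraries had GC values above 0, as did 1 of the 3NC libraries, so the GC value moved with this comparison.

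**Figure D4:**
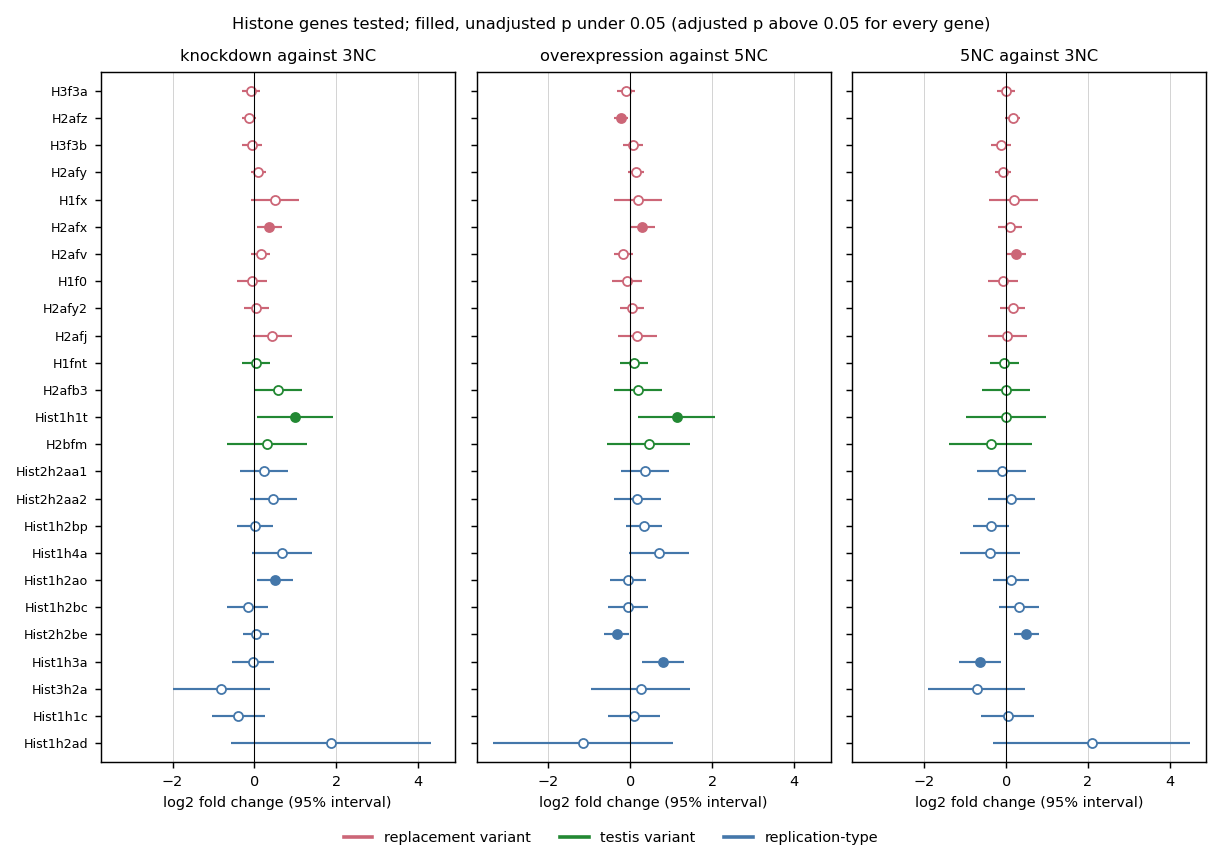
Log2 fold change with 95% interval of 25 of the 27 tested histone genes in each comparison (Hist2h3c1 and Hist2h3c2 are left out because 1 of these rows is at 0 in every library). Filled points have an unadjusted p under 0.05 (Hist1h1t, filled in the knockdown and overexpression panels, entered the test through the groups where it was high), no gene had an adjusted p under 0.05, and the intervals of H3f3a and H2afy are under 1 log2 unit wide while those of Hist1h2ad span several.

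In the testes of the overexpression group no histone gene passed the test against 5NC either, 0 of 27, where 0.311% of all genes were called. DESeq2 and limma called 0 histone genes here. An unadjusted p under 0.05 was found for 4 of the 23 rows (11.9% of all genes). Of these, 2 were higher (Hist1h3a and H2afx) and 2 lower (H2afz and Hist2h2be), against 7.07% and 4.85% of all genes. With a term for the 3 libraries of fewest reads in the fit, H2afx (0.18) and Hist2h2be (-0.28) were no longer under this p. Hist1h3a (0.75) and H2afz (-0.18) still were. Of the 23, 16 had a log2 fold change above 0, as had 48.2% of all genes. The median log2 fold change of the 23 rows was 0.13, against -0.01 over all genes tested. H3f3a had a log2 fold change of -0.11 (95% interval -0.33 to 0.11), H3f3b of 0.07 (-0.17 to 0.31) and H1fnt of 0.09 (-0.26 to 0.44).

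Hist1h3a, which encodes a replication-type H3, had the smallest p of the histone genes in overexpression against 5NC. It was at 1.83, 1.06 and 1.49 CPM in 5NC, from 15.02 to 29.3 reads, and at 2.68, 2.36 and 2.64 CPM in the overexpression group, from 33.3 to 40.8 reads. All overexpression libraries lay above all 5NC libraries, with a log2 fold change of 0.80 ± 0.24 and an adjusted p of 0.195 (edgeR). Among all alternatives its adjusted p was at least 0.0714. Of its 50-base words, 49.5% occur in other rows, so part of its reads could come from other H3 genes. H2afz was at 273, 306 and 312 CPM in 5NC and 243, 252 and 264 CPM in the overexpression group. These groups did not overlap, with a log2 fold change of -0.23 ± 0.08 and an adjusted p of 0.281 (edgeR). DESeq2 called H2afz in the test for any difference among the 4 groups, the 1 call of a histone gene by any fit. Hist2h2be was at 27.2, 27.9 and 30.3 CPM in 5NC and 19.5, 22.9 and 25.3 CPM in the overexpression group, a log2 fold change of -0.34 ± 0.14.

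Hist1h1t had 6, 5 and 9 reads in 5NC and 22, 14 and 8 reads in the overexpression group, and the groups overlapped in CPM. As in the other comparison, these are given as values alone. H2afx was at 33.1, 27.6 and 30.5 CPM in 5NC and 42.4, 39.6 and 30.1 CPM in the overexpression group, which overlap. Hist1h2bp was the other gene wholly above 5NC, with a log2 fold change of 0.34. In all, 2 of the 23 rows lay wholly above and 2 wholly below, against 11.3% and 10% of all genes. A list of 6 round spermatid genes moved with this comparison. All 6 were higher in the overexpression group, 4 of them at an unadjusted p under 0.05, and none of them was called. Their summed level was 1017 to 1140 CPM in 5NC and 1181 to 1450 CPM in the overexpression group, and it was not tested what part this had in the histone values. Of the spermatocyte list of 6 genes, 3 were higher and 3 lower. Only Spo11, which makes the DNA breaks of meiosis, had an unadjusted p under 0.05 (edgeR). It was called and was lower, at 56.8 to 66.0 CPM in 5NC and 39.2 to 46.4 CPM in the overexpression group.

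The vector controls were compared with each other, since each of the other comparisons rests on 1 of them. No histone gene passed in 5NC against 3NC (0 of 27, against 0.128% of all genes), and DESeq2 and limma called none. An unadjusted p under 0.05 was found for 3 of the 23 rows (10.8% of all genes), 2 higher in 5NC and 1 lower (4.21% and 6.55% of all genes). Of the 23, 11 had a log2 fold change above 0, as had 46% of all genes. The round spermatid list moved here too. The log2 fold change was below 0 for 6 of 6, 3 of them at an unadjusted p under 0.05 and none called, with a median of -0.32, and the summed level was 1024 to 1474 CPM in 3NC. The macrophage and white blood cell list was below 0 for 6 of 6 too, with a median of -1.60, and 0 were called. Its summed level was 88.7, 642 and 54.2 CPM in 3NC and 65.7 to 79.1 CPM in 5NC, which overlap. Spo11 was at 43.2 to 46.4 CPM in 3NC, below all 5NC libraries. Hist2h2be was at 18.4, 18.2 and 24.4 CPM in 3NC, below all 5NC libraries, a log2 fold change of 0.49 ± 0.14 with an adjusted p of 0.274 (edgeR). H2afv was at 16.3, 16.3 and 17.7 CPM in 3NC and 20.2, 20.2 and 19.4 CPM in 5NC, a log2 fold change of 0.25 ± 0.11. Hist1h3a was at 2.51, 1.95 and 2.34 CPM in 3NC, above all 5NC libraries, a log2 fold change of -0.63 ± 0.24. These comparisons share the 5NC libraries with those of the overexpression group, and Hist2h2be and Hist1h3a are genes in which 5NC stood apart from both 3NC and the overexpression group. Without overlap there were 3 genes above (H2afv, Hist1h2bc and Hist2h2be) and 1 below (Hist1h3a), against 6.79% and 6.19% of all genes.

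The effect in the knockdown group against 3NC minus that in the overexpression group against 5NC gave 0 calls of 27 in edgeR, DESeq2 and limma, where 0.0244% of all genes were called. An unadjusted p under 0.05 was found for 2 of the 23 rows (4.63% of all genes), 1 in each direction (1.9% higher and 2.73% lower among all genes), and 12 of the 23 differences were above 0 (47.1% of all genes). The 2 genes were Hist1h3a (-0.84 ± 0.33) and H2afv (0.33 ± 0.15). The test for any difference among the 4 groups called 0 histone genes in edgeR, against 0.238% of all genes, with 5 of the 23 rows at an unadjusted p under 0.05 and 11.4% of all genes.

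The classes were also summed in each library. Replacement variants summed to 1397 to 1661 CPM, and the means of 3NC, 5NC, the knockdown group and the overexpression group were 1532, 1524, 1489 and 1484 CPM. Testis variants summed to 337 to 523 CPM, nearly all of it H1fnt, with the lowest value in 3NC replicate 2, a library of high white blood cell genes. Replication-type genes summed to 147 to 254 CPM. Their mean was 191 ± 38.3 CPM in 3NC, 192 ± 23.5 in 5NC, 228 ± 23.3 in the knockdown group and 219 ± 42.3 in the overexpression group (SD, n = 3). The groups overlapped in each of these sums. The lowest sums of the replication-type genes were in 3NC replicate 2 (147 CPM), overexpression replicate 3 (172), 5NC replicate 2 (173) and 5NC replicate 3 (184), all of which had GC values below 0. The fifth library with a GC value below 0, 3NC replicate 3, had 210 CPM, as had knockdown replicate 3, and the highest was 254 CPM in knockdown replicate 2.

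**Figure D5:**
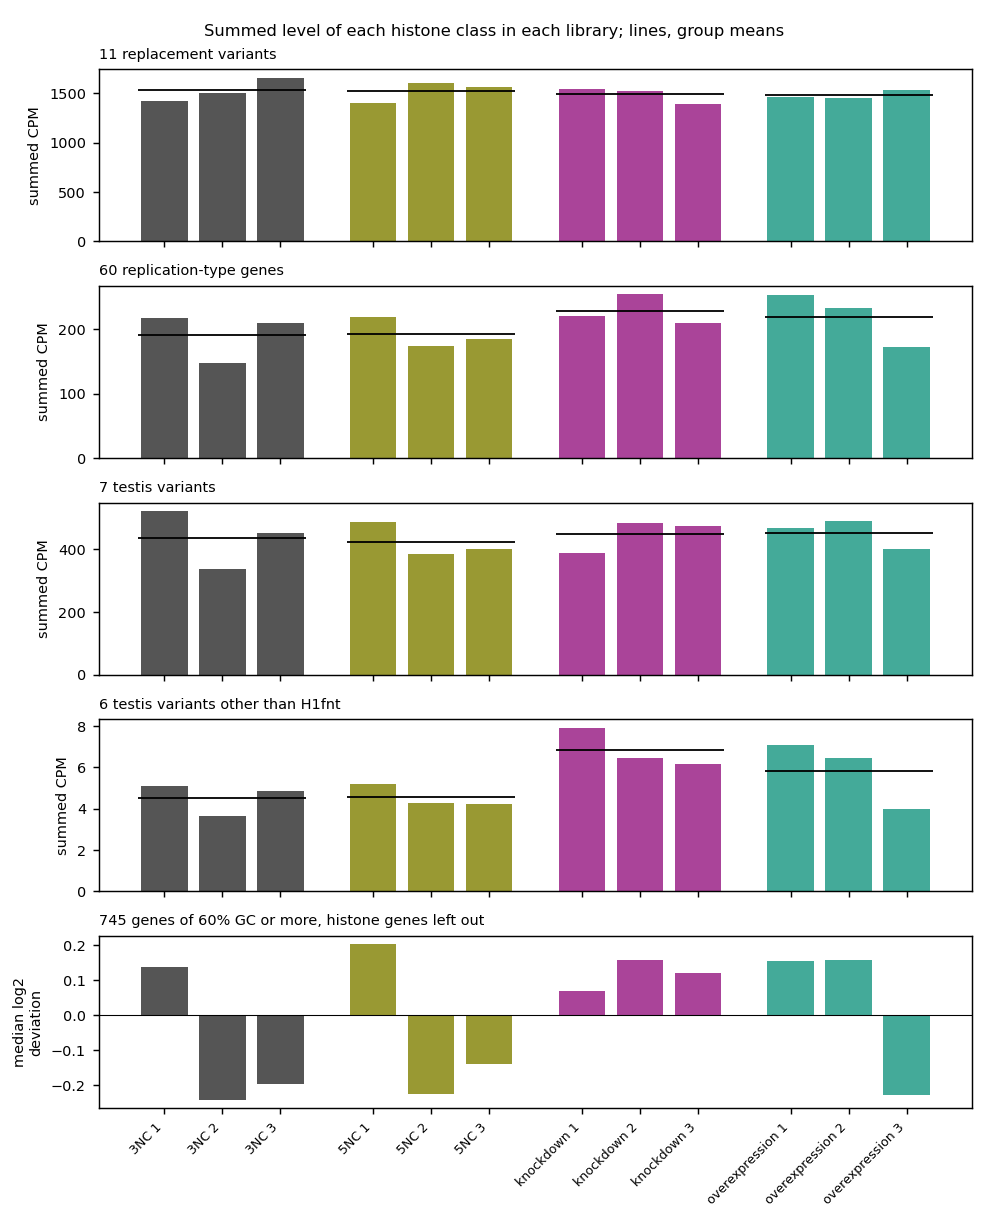
Summed CPM of 3 histone classes, and of the testis variants without H1fnt, in each of the 12 libraries (bars from 0, coloured by group, with lines at group means), above the GC value of each library. The groups overlap in the 3 classes, and 4 of the 5 libraries with a GC value below 0 hold the 4 lowest replication-type sums (147 to 184 CPM).

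Families of the replication type differed in where their reads came from. H4 rows, 12 in all, summed to 7.81, 5.47 and 8.10 CPM in 3NC and to 11.1, 11.96 and 9.25 CPM in the knockdown group, without overlap. Most of this was Hist1h4a, whose log2 fold change in this comparison was 0.67 without and 0.26 ± 0.27 with the GC value as a covariate. H2A rows summed to 87.4 to 147 CPM in 3NC and 140 to 170 CPM in the knockdown group, which overlap. H2B rows ranged over 48.4 to 71.5 CPM in all libraries, H3 rows over 2.81 to 6.25 and H1 rows over 1.69 to 3.57 CPM. The 6 testis variants other than H1fnt summed to 5.10, 3.67 and 4.86 CPM in 3NC and 7.93, 6.45 and 6.14 CPM in the knockdown group, again without overlap. In 5NC these 6 summed to 5.18, 4.29 and 4.22 CPM and in the overexpression group to 7.10, 6.46 and 3.97 CPM, which overlap. The sums of the 6 testis variants rest on 50 to 125 reads per library and those of H4 on 50 to 180, and no test was made of a sum over members.

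A fit with the GC value as a covariate gave the slope of each gene on it. Of the 27 histone genes, 7 (25.9%) had a slope with an adjusted p under 0.05 (edgeR), against 21.2% of all 16388 genes. H1fx, H2afx, Hist2h2aa1, Hist2h2aa2, Hist1h4a and H1fnt were higher where the GC value was higher, and H3f3b was lower. H1fx, the replacement variant of H1 with a transcript GC content of 71.3%, had the steepest slope of these. Hist2h2aa1 and Hist2h2aa2 share most of their sequence, so their slopes are not separate findings. H1fx was at 36.5 to 47.3 CPM in the 7 libraries of GC values above 0 and at 21.4 to 32.0 CPM in the other 5. H3f3b, at 43.4% GC, was at 508 to 593 CPM in those 5 libraries and at 427 to 542 CPM in the 7. The part of the GC value in the differences between groups was not tested beyond the covariate fit, which called 0 histone genes in each comparison.

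Genes that process, carry or replace histones were read from the same fit. Of 16 genes for histone messenger processing, all were tested and 0 passed in any of the 3 comparisons between groups, where 0%, 0.311% and 0.128% of all genes were called. The list also holds Slirp, which is known as a binder of mitochondrial RNA and not as a factor of histone messengers. Slbp, whose protein binds the stem-loop, was at 58.6 ± 6.12 FPKM, and Lsm10 and Lsm11, of the U7 particle that cuts behind it, were at 12.9 ± 1.61 and 0.567 ± 0.0858 FPKM. Npat, the activator of replication-type histone genes, was at 7.29 ± 1.199 FPKM. Of 23 histone chaperone genes 0 passed. Nasp, a chaperone of H1 and H3, was the highest of them at 446 ± 46.2 FPKM, while Asf1b was at 31.5 ± 2.33 and Hira, which deposits H3.3, at 3.66 ± 0.249 FPKM. Of 13 genes for the replacement of histones in spermatids 0 passed. Tnp1 and Tnp2, the transition proteins, were at 6135 ± 725 and 7067 ± 1542 FPKM, and Prm1 and Prm2, the protamines, at 11326 ± 1078 and 10073 ± 896 FPKM. Brdt, which binds acetylated histones in spermatids, was at 148 ± 9.59 FPKM. At an unadjusted p under 0.05 these lists held 0 genes in knockdown against 3NC, where the share of all genes was 5.64%. In overexpression against 5NC they held 4 of 16 (Slirp among the 4), 4 of 23 and 1 of 13, where the share of all genes was 11.9%. In 5NC against 3NC they held 1 of 16, 2 of 23 and 1 of 13, where it was 10.8%.

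Further histone genes carry symbols that the rule does not match. Of 16 such rows in the table, 13 were tested and 0 passed in any comparison, where the shares of all genes called were 0%, 0.311% and 0.128%. An unadjusted p under 0.05 was found for 0 of 13 in knockdown against 3NC, where the share of all genes was 5.64%. It was found for 1 (H2al1g, higher) in overexpression against 5NC, where the share was 11.9%. In 5NC against 3NC it was found for 0, where the share was 10.8%. Hils1, the H1-like protein of spermatids, was at 572 ± 52.7 FPKM, which did not differ from the level of H3f3a beyond the spread. The 12 rows of short H2A variants with H2al symbols ranged from 0.05 FPKM in H2al1h to 338 ± 36.9 FPKM in H2al2a, and Cenpa, the H3 variant of centromeres, was at 2.96 ± 0.794 FPKM. Genes of this list named here were chosen after their values were seen.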

How the data were processed

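The study's authors selected messengers from testis RNA with oligo(dT) beads, sequenced them on a HiSeq instrument and aligned the reads to reference genes with SOAPaligner (build mm10 per the labels). Their deposited table gives each gene estimated counts, unscaled and partly fractional, and an FPKM value, which their methods name RPKM. How reads were divided between near-identical genes was not given in the sources used here. Another 18 per-sample columns and 14 columns of means were not used. Authors' fold changes were not used.

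Estimated counts were rounded. edgeR 4.0.16 in R 4.3.3 fitted all 12 libraries with a coefficient per group (filterByExpr, TMM, glmQLFit, glmQLFTest), with Benjamini-Hochberg adjustment over 16388 genes, and a threshold of 0.05. The filter had a minimum of 10 reads. Depth of 12719699 to 15771655 reads leaves genes of few reads with wide counting error. Alternatives were other scalings, no filter, a replicate block, subsets of libraries, DESeq2 1.42.0, limma 3.58.1 on log2 CPM and log2 FPKM, and the stricter thresholds of the study (adjusted p of 0.001, log2 fold change of 1). The script was tested on simulated data. The members, classes, lists and tests were chosen with earlier results of these data known.

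Genes named are all tested replacement and testis variants, the 3 highest replication-type genes per family where their values bear on a result, and the 2 members of smallest p per direction and comparison. Other genes were named after their values were seen. Stem-loops, AATAAA and 50-base words were searched in GENCODE transcripts of GRCm38. RefSeq matched all 79 gene IDs, and 5 symbols are unchanged there. Same-numbered libraries did not deviate together (median r -0.00 over 18 pairs, range -0.64 to 0.39), so numbers were not taken as pairs.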

Additional observations from a re-analysis of the deposited data

How the results depend on the processing

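No alternative called a histone gene in a comparison between 2 groups or in the difference of effects. In the test for any difference among the 4 groups DESeq2 called 1, H2afz, and every other alternative 0. Among 49 of the 108 values of a tested histone gene in a comparison, some alternative gave the other sign. The count of all genes called moved more, and the cause was not tested. In knockdown against 3NC DESeq2 called 16 genes, against 0. In overexpression against 5NC, where edgeR called 51, the count was 107 with only the 6 libraries compared, 328 by DESeq2, 82 by limma on log2(FPKM + 0.1), 159 without both libraries of high white blood cell genes, 143 with the GC value as a covariate and 5 at the study's thresholds. In 5NC against 3NC, with 21 called, it was 33 without scaling factors, 7 with only the 6 libraries compared, 173 by DESeq2, 35 by limma on FPKM with no filter, 45 without both libraries, 103 with the GC value and 3 at the study's thresholds. In the difference of effects, with 4 called, it was 42 by DESeq2, 9 by limma on FPKM with no filter and 2 at the study's thresholds. For any difference among the 4 groups, with 39 called, it was 64 without scaling factors, 574 by DESeq2, 67 without both libraries, 82 with the GC value and 13 with a term for the 3 libraries of fewest reads.

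With the replicate block the counts of all genes were 0, 21, 5, 2 and 7 in the 5 tests, and 0 histone genes were called. The labels share only a number, and same-numbered libraries did not deviate together. Leaving out 1 library at a time gave 0 histone genes in every test. Of all genes it gave 0 to 12, 9 to 87, 3 to 35, 2 to 10 and 6 to 81. In knockdown against 3NC, 3 of all 27 histone genes had an unadjusted p under 0.05 (edgeR), Hist1h1t included. The count was 1 with the GC value as a covariate and 7 with the term for the 3 libraries of fewest reads. In overexpression against 5NC these counts were 6, 6 and 4. Shares of all genes in the added fits were not computed.

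The log2 ratio of the group sums of the 3 classes moved by less than the spread of the libraries under the alternatives. The exception was leaving H1fnt out of the testis variants, which gave 0.59 for knockdown against 3NC and 0.36 for overexpression against 5NC. With 1 library left out the ratio of the replication-type sums was 0.09 to 0.35, 0.08 to 0.34 and -0.15 to 0.10 in knockdown against 3NC, overexpression against 5NC and 5NC against 3NC. For the testis variants it was -0.11 to 0.19, 0.03 to 0.20 and -0.20 to 0.11, and for the replacement variants -0.09 to 0.02, -0.10 to 6.157e-05 and -0.06 to 0.05. With 1 inner pair of the stem unpaired the stem-loop was found in the last 150 bases of 0.507% of all protein-coding genes, against 0.128%, and in the same number of histone genes. The GC value, the term for the 3 libraries of fewest reads and the 23 rows were chosen after seeing the data. The 52 rows of few reads were not tested, and reads of near-identical rows may have been assigned to the wrong row.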
